A study of Mus musculus with 2 samples.

Results

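The 4 genes described here, Atp1b1, Atp1b2, Slc12a2 and Slc12a5, code for proteins that set the sodium, potassium and chloride gradients of brain cells. They were taken by name, as 4 of the 31053 genes in the count tables, by a rule that uses no measured value, though earlier results of these data were known when they were chosen. Nuclei were sorted for GFP from the cortex ipsilateral to a mild traumatic brain injury (mTBI) in Atf3-CreER::Sun1-sfGFP mice over 7 weeks old, heterozygous for both alleles. All animals were injured, received tamoxifen at 4 and 5 days post injury (dpi) and were collected at 7 dpi. The 2 libraries each came from a pool of 4 animals, 1 pool of males and 1 of females. CreER driven by Atf3 turns on the reporter, which sits on the nuclear envelope, in cells that express Atf3 while tamoxifen is present. No uninjured cortex was measured, so each comparison is between cell labels of injured cortex. The sex entry of the female library reads male, while its title and the deposited table of nuclei mark it as female.

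The sodium pump exchanges sodium for potassium at the cost of ATP and needs a catalytic alpha subunit and a beta subunit, which carries the alpha subunit to the membrane. Atp1b1 codes for the beta-1 subunit, found widely in neurons, and Atp1b2 for the beta-2 subunit, also known as the adhesion molecule on glia. The gradients the pump makes drive the SLC12 cotransporters. NKCC1, the product of Slc12a2, carries chloride into cells, whereas KCC2, the product of Slc12a5, carries chloride out of mature neurons, and the balance of the pair sets whether GABA lowers or raises the excitability of a neuron.

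On GRCm38 with the GENCODE vM21 annotation, Atp1b1 (ENSMUSG00000026576) lies on chromosome 1 from 164437109 to 164458355 on the minus strand, and Atp1b2 (ENSMUSG00000041329) on chromosome 11 from 69599736 to 69605942 on the minus strand. Slc12a2 (ENSMUSG00000024597) lies on chromosome 18 from 57878678 to 57946821 and Slc12a5 (ENSMUSG00000017740) on chromosome 2 from 164960802 to 164999731, both on the plus strand. Atp1b1 overlaps 1 annotated gene, Nme7, on the opposite strand, which had 1616 UMIs over all sums used. The strand setting of the counting is not given in the sources used here. The other members overlap no annotated gene. Reads from introns and exons both counted, since the counting used a pre-mRNA reference.

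The tables held 8171 labelled nuclei, of which 7512 fell into the 15 labels used: 9 neuronal labels with at least 50 nuclei, the label Unknown and 5 non-neuronal labels. The male library held 10823136 UMIs in labelled nuclei with a median of 1742 per nucleus, and the female library 23127444 with a median of 3710. The libraries shared 1 barcode. The labels L2/3 IT CTX-2 and L6 IT CTX were shallow, with medians between 1506 and 2708 UMIs per library, below the other neuronal labels. In neuronal labels the 4 neuron markers summed to between 10434 and 20823 CPM (counts scaled to a common total of UMIs), the 7 microglia markers to between 286 and 1675 CPM, and in microglia the latter summed to 3688 and 3849 CPM, so UMIs of microglia markers were present in neuronal sums. Their part in the results was not tested beyond the alternatives given beside them. In L6 IT, an excitatory label, the 3 inhibitory markers summed to 326 (male) and 141 (female) CPM. Its 3 excitatory markers summed to 231 and 173 CPM, so the male sum went against its class. In the other excitatory labels the inhibitory markers summed to between 4.78 and 128 CPM. The label SMC-Peri also went against its markers. In SMC-Peri, the label for smooth muscle cells and pericytes, the 4 mural markers summed to 45.3 and 55.6 CPM, below the 113 and 144 CPM of VLMC, the label for vascular and leptomeningeal cells.

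Levels below are CPM of UMIs summed over the nuclei of a label in a library, the male library first. Barcodes that were not called as nuclei, with 1 to 50 UMIs, give the level of free RNA: 227 and 143 CPM for Atp1b1, 4.28 and 4.46 for Atp1b2, 105 and 88.1 for Slc12a2, and 51.3 and 43.5 for Slc12a5. Intervals on levels and shares are exact at 95% and cover counting error only.

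**Figure D1:**
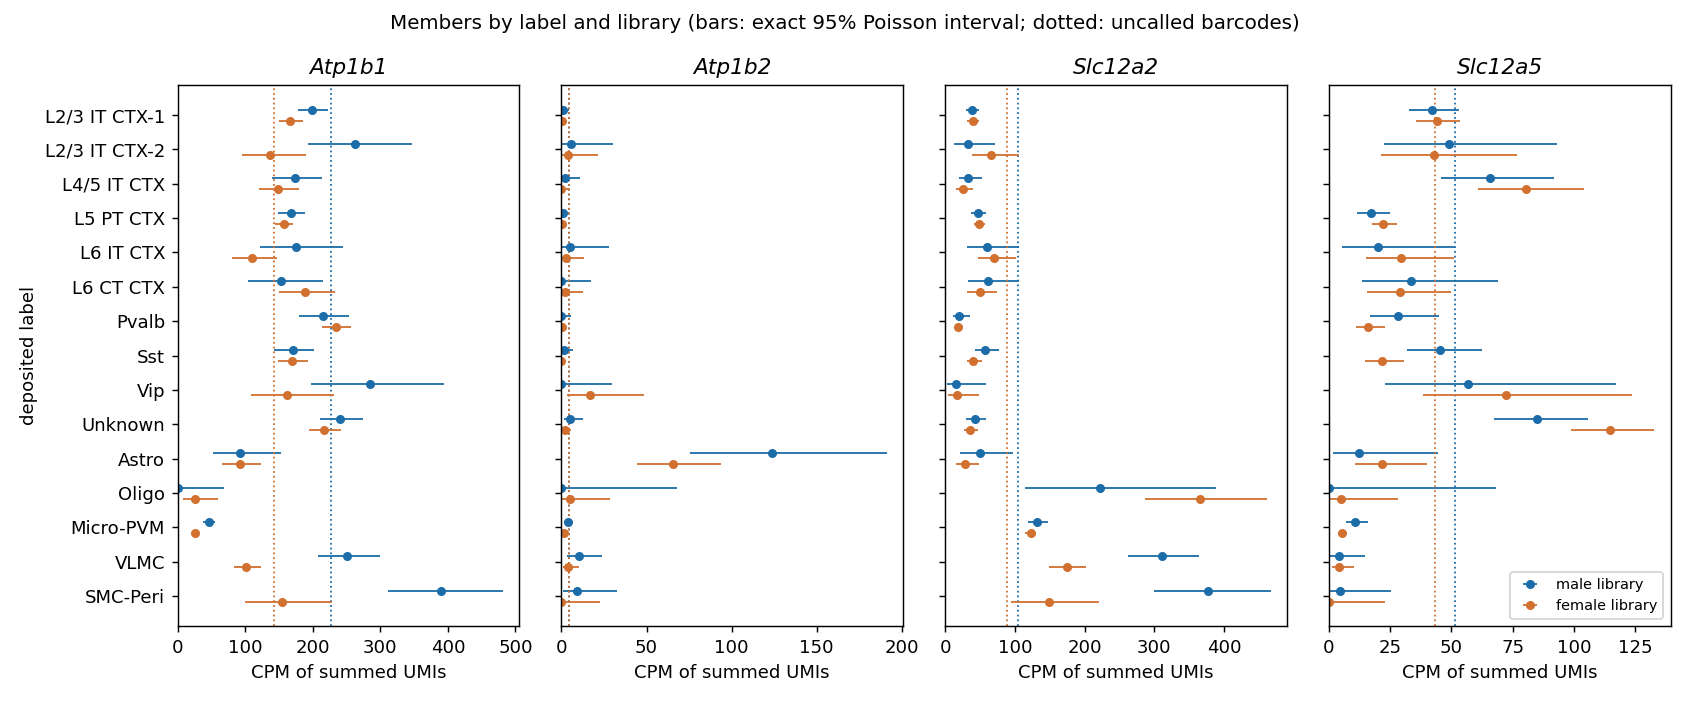
CPM of summed UMIs (x axis) of the 4 members in each deposited label (y axis), for the male (blue) and female (orange) library, with exact 95% Poisson intervals; dotted lines mark the level in uncalled barcodes. Atp1b1 sits between 110 and 284 CPM in the neuronal labels, Atp1b2 stands out in astrocytes alone among the labels shown, Slc12a2 is high in oligodendrocytes, SMC-Peri and VLMC, and Slc12a5 in Unknown and L4/5 IT.

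Atp1b1, the widely used beta subunit, had UMIs in every neuronal label. Most male sums lay below the male level of free RNA, with L2/3 IT CTX-2 and Vip above it, and the female sums lay above the female level except in L2/3 IT CTX-2 and L6 IT. With free RNA subtracted, female L2/3 IT CTX-2 was at 28.4 CPM and female L6 IT at 0. As counted, the level was 199 and 167 CPM in L2/3 IT CTX-1, 174 and 148 CPM in L4/5 IT, 168 and 157 CPM in L5 PT (pyramidal tract neurons, also called extratelencephalic) and 153 and 189 CPM in L6 CT. In the inhibitory labels it was 214 and 234 CPM in Pvalb, 171 and 170 CPM in Sst and 284 and 161 CPM in Vip. In the 2 shallow labels it was 262 and 137 CPM in L2/3 IT CTX-2 and 176 and 110 CPM in L6 IT. In the order of mean levels most neuronal neighbours overlapped in the range of their libraries. The exceptions were Sst above L5 PT and L6 IT above astrocytes.

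Outside neurons Atp1b1 was lower in 3 labels. Astrocytes held 92.8 and 91.7 CPM and microglia 45.7 and 25.5 CPM. Oligodendrocytes had no Atp1b1 UMI in the male library, where 3 counts would be 55.5 CPM, and 5 UMIs (25.4 CPM) in the female library. An Atp1b1 UMI was found in 46.0% and 67.9% of L5 PT nuclei, against 6.69% and 8.30% of microglia, at median depths of 3790 and 10700 against 1298.5 and 3012.5 UMIs. After each nucleus was thinned to 1000 UMIs, the shares were 15.4% and 14.2% in L5 PT and 4.23% and 2.91% in microglia, and the gap remained. Thinning left out 8 and 1 nuclei of L5 PT and 453 and 16 of microglia as too shallow.

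Atp1b2 marked astrocytes. Its level there was 124 CPM (20 UMIs, interval 75.6 to 191) and 65.5 CPM (30 UMIs, interval 44.2 to 93.5), with a UMI in 28.3% and 33.9% of nuclei. In the 9 neuronal labels together 18 of the 3041 UMIs of both beta genes were of Atp1b2, and microglia held 3.61 and 1.49 CPM, with a UMI in 0.533% and 0.513% of nuclei. Apart from astrocytes, the highest value in any label was 16.7 CPM, from 3 UMIs in the female Vip sum, next to 0 UMIs in the male one. Levels of Atp1b2 outside astrocytes were within the range of free RNA or rested on a few UMIs, and no order among them could be read.

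Slc12a2, which codes for the importer NKCC1, was highest in oligodendrocytes, SMC-Peri and VLMC. Oligodendrocytes held 222 CPM (12 UMIs, interval 115 to 388) and 366 CPM (72 UMIs, interval 286 to 461), SMC-Peri 376 and 148 CPM, and VLMC 310 and 174 CPM. The ranges of these 3 labels overlapped. The levels of SMC-Peri and VLMC differed widely between the authors' clusters within them, described below. Slc12a2 was at 506 and 503 CPM in cluster 15 and at 27.4 and 22.7 CPM in cluster 11. Microglia followed at 132 and 123 CPM and did not overlap with VLMC above or with any neuronal label below. As counted, the neuronal level was highest in L6 IT (60.2 and 70.6 CPM), whose sums also held inhibitory markers, and L6 CT (62.1 and 49.4 CPM). It was 46.5 and 48.6 CPM in L5 PT, 38.5 and 39.5 CPM in L2/3 IT CTX-1 and 57.8 and 40.3 CPM in Sst. The lowest levels were in Pvalb (20.5 and 18.6 CPM) and Vip (16.2 and 16.7 CPM, from 5 UMIs). All neuronal levels were below those of free RNA, and their order changed where it was subtracted. L6 IT was then at 17.9 and 0 CPM, L6 CT at 48.9 and 4.25 CPM and L5 PT at 20.7 and 14.3 CPM. The female sums of both L2/3 IT labels, L4/5 IT, Pvalb and Vip were then at 0. Astrocytes, at 49.5 and 28.4 CPM, lay within the neuronal range.

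Slc12a5, which codes for the exporter KCC2, was highest in Unknown (85.1 and 115 CPM), then in L4/5 IT (65.8 and 80.3 CPM) and Vip (56.8 and 72.2 CPM), 2 neighbours that overlapped. L2/3 IT CTX-1 held 42.1 and 44.0 CPM and CTX-2 held 49.1 and 43.0 CPM. The level was 45.2 and 21.6 CPM in Sst and 28.4 and 16.0 CPM in Pvalb. L5 PT had the lowest neuronal mean, at 17.1 and 22.3 CPM, and overlapped with Pvalb and with L6 IT (20.1 and 29.2 CPM). L6 CT held 33.4 and 29.2 CPM. Among the neuronal labels, both sums of L4/5 IT and Vip and the female L2/3 IT CTX-1 sum lay above free RNA (51.3 and 43.5 CPM). The other neuronal sums lay below it. Microglia held 10.8 and 5.47 CPM, VLMC 4.11 and 3.98 CPM, and oligodendrocytes 0 and 1 UMI. A UMI of Slc12a5 was seen in 6.82% and 22.1% of L5 PT nuclei, in 28.0% and 42.3% of L4/5 IT nuclei and in 1.60% and 1.88% of microglia. Thinned to 1000 UMIs, the shares were 1.70% and 2.38% in L5 PT, 5.80% and 7.52% in L4/5 IT and 1.34% and 0.577% in microglia, so the male L5 PT share was close to that of microglia.

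Tests were edgeR quasi-likelihood fits on the sums per library and label, with Benjamini-Hochberg adjustment over all genes tested and a threshold of 0.05. Fold changes are log2 with a standard error (SE). Each label has 2 sums, and the p-values measure the spread between these 2 pools.

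Between the mean of the 3 inhibitory and that of the 6 excitatory labels, Slc12a2 was lower and Atp1b1 higher in the inhibitory ones. For Slc12a2 the low levels were those of Pvalb and Vip, while Sst lay within the range of the excitatory labels. For Atp1b1 only the female Pvalb and the male Vip sum lay above all excitatory sums of their library. The fitted change of Slc12a2 was -0.83 (SE 0.21, adjusted p = 0.00583), with -0.61 (male) and -0.91 (female) in single libraries. Atp1b1 changed by 0.35 (SE 0.13, adjusted p = 0.0445), with 0.33 and 0.42 in the libraries alone. For Slc12a5 the fitted change was -0.00 (SE 0.18, adjusted p = 0.9998), with 0.38 (male) and -0.26 (female) in single libraries, while Atp1b2 had too few UMIs to enter the fit. Among 8664 genes tested, 24.6% were called (11.9% higher and 12.7% lower), so 2 of 3 members called is set against a background in which such calls are common. The call of Atp1b1 was lost in 5 alternatives, with adjusted p = 0.0536 with no filter on low counts and 0.166 with all labels in 1 fit. That of Slc12a2 was lost where free RNA was subtracted (adjusted p = 0.9999) and where nuclei with 2 UMIs of other cells' markers were left out (adjusted p = 0.380).

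In L5 PT against the mean of the L2/3 IT labels, the deep-layer projection neurons against those of the upper layers, Slc12a5 was lower by 1.09 on the log2 scale, a 2.12-fold difference (log2 change -1.09, SE 0.30, adjusted p = 0.0173). All 4 sums of L2/3 IT, between 42.1 and 49.1 CPM, lay above both sums of L5 PT, at 17.1 and 22.3 CPM. Only the female L2/3 IT CTX-1 sum of these was above free RNA. The sums of L6 IT, L6 CT and Pvalb, outside this comparison, also lay below those of L2/3 IT. With free RNA subtracted, L5 PT was at 1.72 and 3.96 CPM. L2/3 IT CTX-1 was then at 38.0 and 41.2 CPM and CTX-2 at 49.4 and 14.2 CPM. The change was -1.27 (male) and -0.80 (female) in single libraries. Slc12a2 changed by 0.12 (SE 0.24, adjusted p = 0.818) and Atp1b1 by -0.17 (SE 0.19, adjusted p = 0.662), neither past the threshold, and the background of calls was 12.8% of genes (6.76% higher and 5.99% lower). The microglia markers summed to 502 and 830 CPM in L5 PT and to 437 and 844 CPM in L2/3 IT CTX-1. Without the shallow label CTX-2, and without L6 IT, the change of Slc12a5 was -1.05 (adjusted p = 0.0196). The call was lost where free RNA was subtracted (-3.33, adjusted p = 0.262), a setting in which the number of genes called fell from 1105 to 79. Where nuclei with 2 UMIs of other cells' markers were left out, 9 female L5 PT nuclei remained and Slc12a5 was not tested.

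Pvalb neurons, the fast-spiking interneurons, were compared with the mean of Sst and Vip. Slc12a5 was lower in Pvalb by 1.13 on the log2 scale (log2 change -1.13, SE 0.34, adjusted p = 0.0368), with -0.76 (male) and -1.14 (female) in single libraries. The Pvalb sums, 28.4 and 16.0 CPM, overlapped with those of Sst, 45.2 and 21.6 CPM, and not with those of Vip. The Vip sums rested on 7 and 13 Slc12a5 UMIs (intervals 22.8 to 117 and 38.5 to 124 CPM). Atp1b1 (0.28, SE 0.20, adjusted p = 0.506) and Slc12a2 (-0.50, SE 0.39, adjusted p = 0.574) did not pass the threshold, and 9.97% of all genes did (5.82% higher and 4.16% lower). The call of Slc12a5 was near the threshold, with adjusted p = 0.05004 by DESeq2, 0.0841 with no filter on low counts and 0.0891 with all labels in 1 fit.

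**Figure D2:**
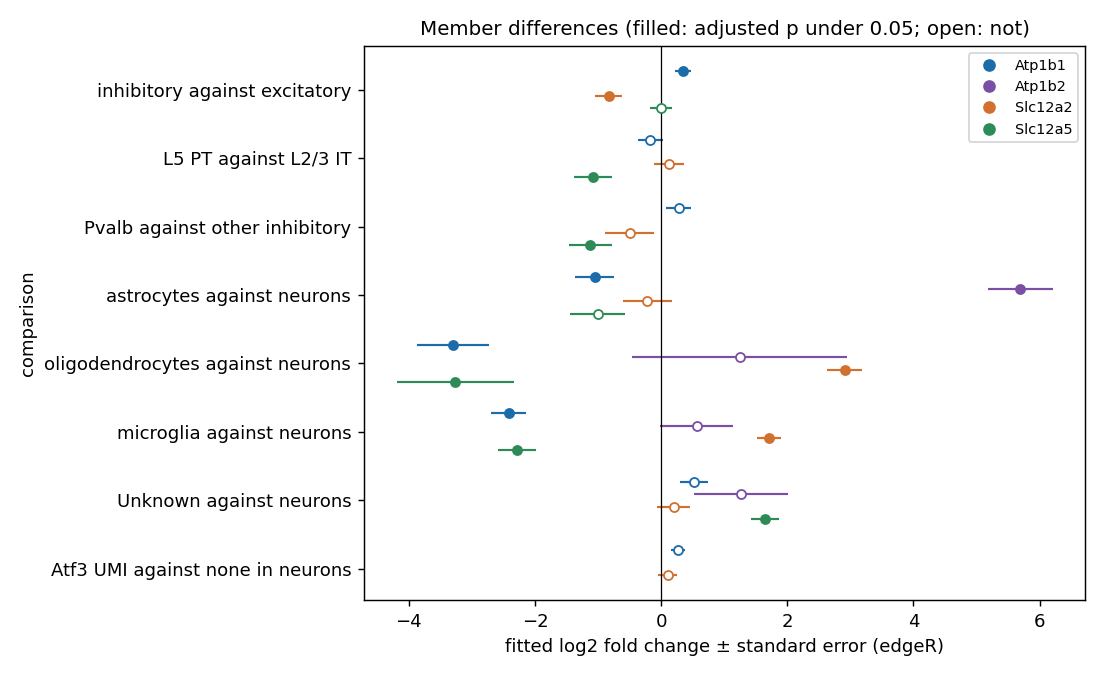
Fitted log2 fold change with its standard error (x axis) of each member in the 8 comparisons (y axis); filled points passed an adjusted p of 0.05 and open points did not. Atp1b2 is far to the right in astrocytes at 5.70, and in oligodendrocytes and microglia Slc12a2 lies to the right of 0 while Atp1b1 and Slc12a5 lie to the left.

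Against the mean of the 9 neuronal labels, in a fit of all 30 sums, each glial label was tested in turn. In astrocytes Atp1b2 was higher by 5.70 (SE 0.51, adjusted p = 2.78e-10), with 6.20 and 5.13 in the libraries alone, and Atp1b1 lower, at -1.06 (SE 0.31, adjusted p = 0.00815). The size of the Atp1b2 change rests on the few neuronal UMIs. Slc12a5 (-1.01, SE 0.43, adjusted p = 0.0732) and Slc12a2 (-0.22, SE 0.39, adjusted p = 0.743) did not pass the threshold in astrocytes. The background of calls was 35.1% (18.8% higher and 16.3% lower). The call of Atp1b1 was lost with free RNA subtracted (adjusted p = 0.374) and without mixed nuclei at 2 UMIs (adjusted p = 0.254).

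In oligodendrocytes Slc12a2 was higher by 2.91 (SE 0.27, adjusted p = 1.59e-09), a 7.51-fold difference. Atp1b1 was lower, at -3.30 (SE 0.57, adjusted p = 4.64e-05), and so was Slc12a5, at -3.27 (SE 0.93, adjusted p = 0.00921), with 5 and 1 UMIs in oligodendrocytes over both libraries. The fitted sizes of these last 2 changes depend on the prior count. The female sum of Slc12a5, 5.08 CPM, had an interval from 0.129 to 28.3, and DESeq2 did not call it (adjusted p = 0.0778). Of all genes, 23.5% were called (11.4% higher and 12.1% lower). The oligodendrocyte markers summed to 9948 and 8010 CPM in this label, the microglia markers to 869 and 1469 CPM.

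Microglia were the largest label, with 1690 and 2338 nuclei, and most of the genes tested (59.9%) were called there, 33.2% higher and 26.8% lower. Slc12a2 was higher by 1.71 (SE 0.20, adjusted p = 1.11e-08). Atp1b1 was lower, at -2.42 (SE 0.28, adjusted p = 9.36e-09), and Slc12a5 as well, at -2.28 (SE 0.30, adjusted p = 1.18e-07). Atp1b2 did not pass the threshold (0.57, SE 0.58, adjusted p = 0.424), except where nuclei with 2 UMIs of other cells' markers were left out (3.102, adjusted p = 0.0361). The level of Slc12a2 in microglia, 132 and 123 CPM, was above free RNA in both libraries, while those of Atp1b1 and Slc12a5 were below it.

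Nuclei labelled Unknown carried neuron markers, with 7366 and 6757 CPM in sum, below the range of the neuronal labels. Slc12a5 was higher in them than in the mean neuronal label by 1.65 (SE 0.22, adjusted p = 5.59e-07), a 3.14-fold difference, with 1.46 (male) and 1.85 (female) in single libraries. An Slc12a5 UMI was found in 26.7% and 58.2% of these nuclei. Atp1b1 changed by 0.52 (SE 0.22, adjusted p = 0.0759), and was called with the library as a block (0.52, adjusted p = 0.0262) and with no filter on low counts (0.63, adjusted p = 0.0172). Neither Slc12a2 (0.20, SE 0.26, adjusted p = 0.647) nor Atp1b2 (1.27, SE 0.74, adjusted p = 0.223) passed the threshold, and the background was 30.8% (18.2% higher and 12.6% lower). In the authors' clusters, chosen here after values were seen, Unknown divided into cluster 7 (190 and 143 nuclei) and cluster 23 (35 and 27 nuclei). Slc12a5 stood at 85.7 and 114 CPM in cluster 7 and at 72.0 and 124 CPM in cluster 23, the latter from 3 and 10 UMIs, too few to compare the clusters. Prox1, which codes for a homeodomain transcription factor, was at 244 and 239 CPM in cluster 7 and, from 6 and 12 UMIs, at 144 and 149 CPM in cluster 23.

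The 2 cotransporters were also set against each other within each sum, which takes the total of the sum out of the comparison. Slc12a2 made up 55.3% of their joint UMIs over the neuronal labels (687 of 1242, interval 52.5 to 58.1), and 32.4% where free RNA was subtracted, so which of them had more UMIs depends on that step. The share was 73.1% and 68.6% in L5 PT (intervals 63.5 to 81.3 and 62.4 to 74.3). In L2/3 IT CTX-1 it was 47.8% and 47.3% (39.1 to 56.6 and 39.9 to 54.8), with no overlap with L5 PT. The intervals of L2/3 IT CTX-2, at 40.0% (16.3 to 67.7) and 60.7% (40.6 to 78.5), did overlap those of L5 PT. L6 IT, at 75.0% and 70.7%, and L6 CT, at 65.0% and 62.9%, lay near L5 PT. The share was 33.3% and 24.0% in L4/5 IT and 22.2% and 18.8% in Vip. Pvalb had 41.9% and 53.7%, and Sst 56.1% and 65.2%. Unknown nuclei had 33.3% and 23.8%. Free RNA itself held more Slc12a2 UMIs, 49 beside 24 of Slc12a5 in the male library and 79 beside 39 in the female one. With free RNA subtracted the share was 92.3% and 78.4% in L5 PT, on 26 and 37 joint UMIs. In L2/3 IT CTX-1 it was then 27.7% and 0%, on 65 and 52 UMIs. In oligodendrocytes, microglia, VLMC and SMC-Peri the share lay between 92.4% and 100%, and in astrocytes it was 80.0% and 56.5%, on 10 and 23 UMIs. For the pump, Atp1b2 made up 57.1% and 41.7% of the joint beta-1 and beta-2 UMIs in astrocytes and 0.592% over the neuronal labels (interval 0.351 to 0.934). These shares compare labels and do not compare the amounts of 2 genes, whose capture can differ.

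**Figure D3:**
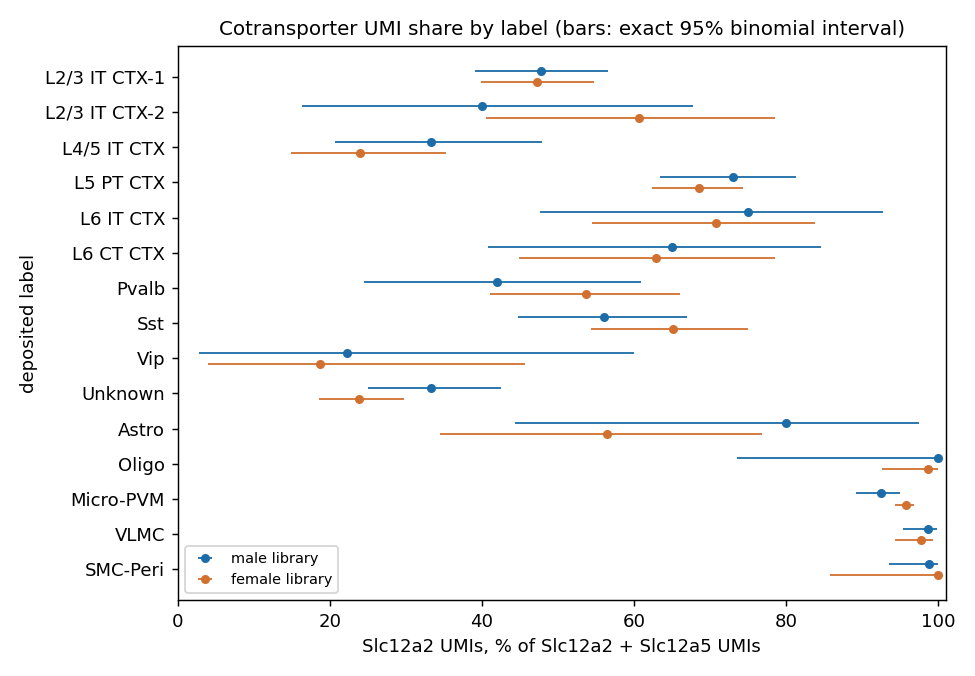
Slc12a2 UMIs as a percent of Slc12a2 plus Slc12a5 UMIs (x axis) in each label (y axis), for the male (blue) and female (orange) library, with exact 95% binomial intervals. L5 PT lies at 73.1% and 68.6%, above L2/3 IT CTX-1 at 47.8% and 47.3%, and oligodendrocytes, microglia, VLMC and SMC-Peri lie at 92.4% or more.

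In SMC-Peri, Atp1b1 stood at 390 and 154 CPM and in VLMC at 251 and 101.5 CPM, and the authors' clusters within these labels differed widely. Cluster 15 (83 and 22 nuclei) held Atp1b1 at 416 and 492 CPM and Slc12a2 at 506 and 503 CPM, with no Atp1b2 UMI. Its nuclei also held Ttr, which codes for transthyretin, at 3702 and 2353 CPM, Htr2c, a serotonin receptor gene, at 15478 and 13521 CPM, and Enpp2, the autotaxin gene, at 7140 and 7612 CPM, while neither the mural genes Pdgfrb and Rgs5 nor the fibroblast genes Col1a1 and Dcn had a UMI there. Cluster 11 (97 and 119 nuclei) held Dcn at 181 and 206 CPM and Pdgfrb at 137 and 178 CPM, with no Rgs5 UMI either. In it Atp1b1 was at 32.8 and 20.8 CPM and Slc12a2 at 27.4 and 22.7 CPM. Cluster 25, with 13 and 17 nuclei, had Atp1b1 at 476 and 109 CPM, Slc12a2 at 248 and 472 CPM and no Rgs5 UMI. Cluster 15 made up 49 of 92 male and 7 of 41 female SMC-Peri nuclei. The clusters and the genes named from them were chosen after values were seen, and they are given as a description with no test.

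**Figure D4:**
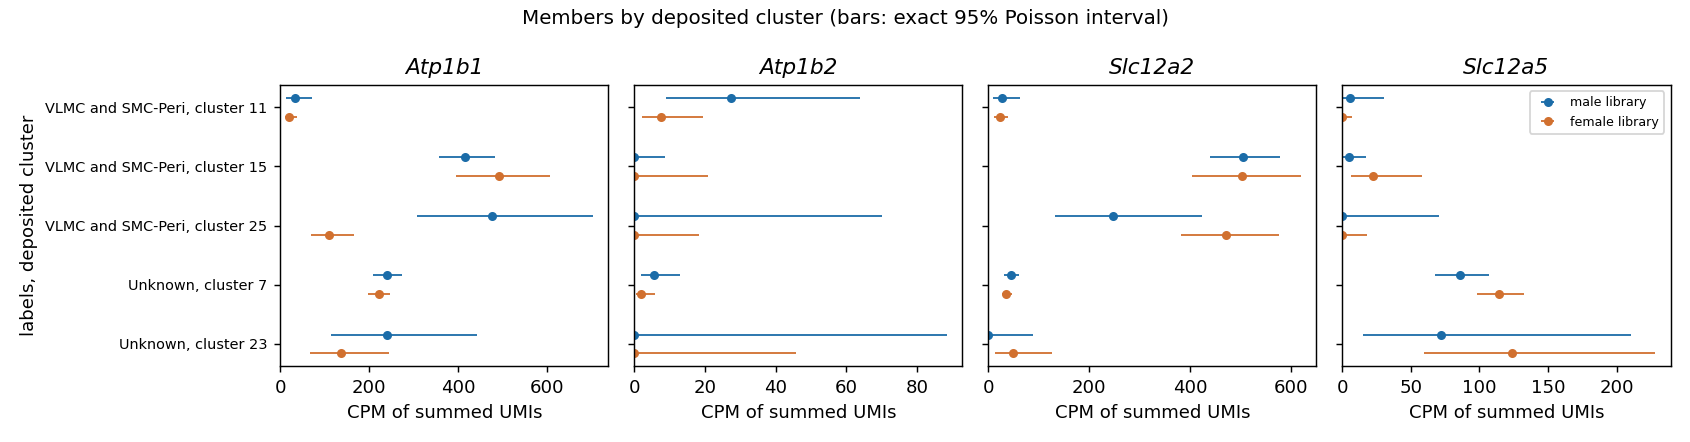
CPM of summed UMIs (x axis) of the members in the authors' clusters with at least 10 nuclei in each library (y axis), within the joint labels VLMC and SMC-Peri and within Unknown, with exact 95% Poisson intervals, male library in blue and female in orange. Cluster 15 lies at 416 CPM or more for Atp1b1 and Slc12a2 and cluster 11 at 32.8 CPM or less for both. Cluster 25 lies at 476 and 109 CPM for Atp1b1.

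Among neurons, nuclei with an Atf3 UMI were set against those without, within each library and label with at least 10 nuclei of each kind. Slc12a5 had 24.8 and 22.6 CPM in the 329 and 516 nuclei with an Atf3 UMI and 40.5 and 41.2 CPM in the 974 and 639 without. These pooled levels also carry the different mix of labels in both kinds, since Pvalb nuclei more often had an Atf3 UMI (71 of 119 and 129 of 150). Slc12a5 did not pass the filter on low counts. In the fit with every gene kept, with library and label as a block, its change was -0.56 (adjusted p = 0.0975), not past the threshold. Atp1b1, at 195 and 199 CPM with and 186 and 141 CPM without an Atf3 UMI, changed by 0.26 (SE 0.11, adjusted p = 0.190), with -0.21 (male) and 0.68 (female) in single libraries, and Slc12a2, at 48.4 and 35.8 CPM against 38.0 and 44.4 CPM, by 0.11 (SE 0.15, adjusted p = 0.791). Of 3975 genes tested 5.28% were called (1.91% higher and 3.37% lower). Of the 2 members tested 0 were called by edgeR and 0 by DESeq2, each with 1 at an unadjusted p under 0.05. Nuclei with an Atf3 UMI were deeper, with medians of 4323 and 10966 UMIs against 3356.5 and 6737, so that an Atf3 UMI is also a mark of depth.

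Other genes of the pump and of the SLC12 system were described from a list of 27: 3 pump subunits, 11 pump regulators, 7 SLC12 genes and 6 kinases that act on SLC12 transporters. Between inhibitory and excitatory labels 15 were tested, of which 1 was higher and 2 were lower, where 11.9% and 12.7% of all genes were, with a median change of 0.11 beside -0.05 for all genes. Nkain3, a gene of the Na,K-ATPase interacting family, was higher (1.71, SE 0.19, adjusted p = 4.97e-07). Fxyd6, a gene of the FXYD pump modulators (-1.29, SE 0.43, adjusted p = 0.0322), and Atp1b3, a further beta subunit (-0.81, SE 0.18, adjusted p = 0.00132), were lower in inhibitory labels. The beta-1 gene Atp1b1 was higher there, by a call that was lost in several alternatives. Atp1b3 had 41.0 and 38.7 CPM in Pvalb and 62.6 and 60.8 CPM in L2/3 IT CTX-1.

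In L5 PT against L2/3 IT, 3 of the 15 tested were higher and 1 was lower (median 0.11 beside -0.02 for all genes), where 6.76% and 5.99% of all genes were. In Pvalb against the other inhibitory labels, 1 was higher and 2 were lower (median 0.11 beside 0.04), where 5.82% and 4.16% of all genes were. Nkain3 was higher in L5 PT (1.38, SE 0.25, adjusted p = 0.000532) and lower in Pvalb (-2.86, SE 0.29, adjusted p = 4.77e-07), with 266 and 229 CPM in Sst and 25.2 and 21.2 CPM in Pvalb.

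In astrocytes against neurons 5 of 18 list genes tested were higher and 5 lower (median -0.20 beside -0.02), where 18.8% and 16.3% of all genes were. The higher ones, named after their values were seen, were Slc12a4, Slc12a7, Nkain4, Wnk1 and Wnk2. While Atp1b2 was higher in astrocytes, Atp1b3 was lower there, as Atp1b1 was (-1.39, SE 0.33, adjusted p = 0.00103 for Atp1b3). Nkain1 (-3.95, SE 0.70, adjusted p = 3.48e-05), Nkain2 (-1.34, SE 0.34, adjusted p = 0.00243) and Fxyd6 (-3.34, SE 1.24, adjusted p = 0.0367) were also lower. In oligodendrocytes 4 of 18 were higher and 1 was lower (median 0.60 beside -0.22), where 11.4% and 12.1% of all genes were, among them Nkain2, at 5362 and 5479 CPM, which was higher by 2.24 (SE 0.25, adjusted p = 3.08e-08), and Nkain1, higher by 2.52 (SE 0.28, adjusted p = 4.91e-08). Atp1b3 was higher in oligodendrocytes (0.94, SE 0.28, adjusted p = 0.0137), at 111 and 112 CPM, where Atp1b1 was lower.

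In microglia 5 were higher and 8 lower (median -1.04 beside 0.17), where 33.2% and 26.8% of all genes were. The higher ones, also named after their values were seen, were Slc12a4, Slc12a7, Slc12a9, Fxyd5 and Wnk1. Nkain1 was lower (-3.39, SE 0.34, adjusted p = 7.03e-10), as Atp1b1 was. In Unknown 4 were higher and 2 lower (median -0.17 beside 0.06), where 18.2% and 12.6% of all genes were. Nkain3 was higher by 3.01 (SE 0.20, adjusted p = 5.46e-13), at 328 and 267 CPM, and Nkain2 by 1.97 (SE 0.25, adjusted p = 1.77e-07), at 3548 and 3332 CPM. Of the 8 list genes tested by Atf3 UMI 0 were called by edgeR and 0 by DESeq2, with 1 and 2 at an unadjusted p under 0.05.

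**Figure D5:**
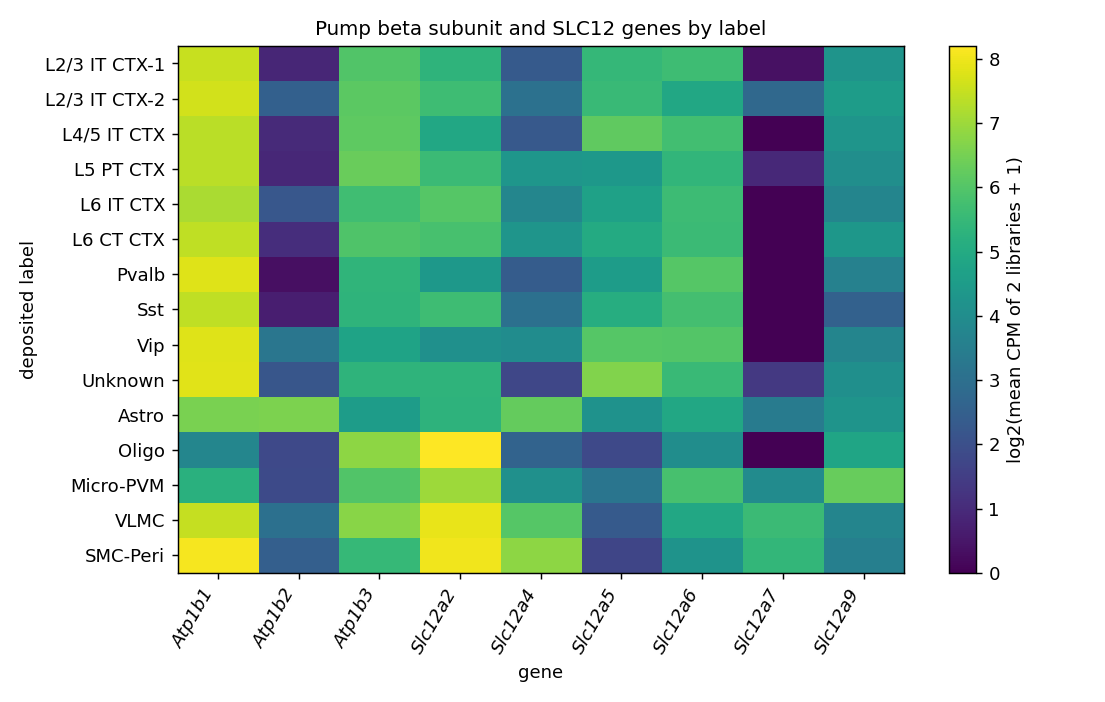
Pump beta subunit and SLC12 genes (x axis) in each label (y axis), colored by log2 of the mean CPM of both libraries plus 1. Atp1b2 is bright in the row of astrocytes, Atp1b1 in the neuronal rows, VLMC and SMC-Peri, and Slc12a2 in the rows of oligodendrocytes, VLMC and SMC-Peri.

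For each member, genes with the most similar pattern over the 15 labels were found among 10039 genes, by the smaller of the correlations in the male and the female library of log2(CPM + 1). The correlations describe points that share libraries and free RNA. For Atp1b1 they were Npr2 (r = 0.93 and 0.92), Ankrd45 (0.96 and 0.91) and Dbn1 (0.89 and 0.87). For Atp1b2 they were 2700081O15Rik (0.79 and 0.82), Hopx (0.80 and 0.79) and Nr2e1 (0.81 and 0.78). For Slc12a2 they were Plekhg3 (0.90 and 0.86), Cd82 (0.91 and 0.86) and Slk (0.88 and 0.85), and for Slc12a5 Tmem145 (0.94 and 0.91) and Gabbr2 (0.89 and 0.90), a GABA-B receptor subunit gene. Slc12a2 and Slc12a5 were related to each other at r = -0.81 and -0.73.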

How the data were processed

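GFP+ nuclei of 2 libraries were sequenced on the 10x Genomics 3' platform. UMI counts for each gene and barcode were made by the authors with Cell Ranger on an mm10 pre-mRNA reference and deposited as raw counts. The submitters' processing notes name version 3.1.0, and the file headers name others. The deposited table of nuclei also gives UMI and gene counts, the percent of mitochondrial UMIs, the library, the cluster and the cell label, made by the authors with Seurat and a reference of mouse cortex.

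UMIs were summed per library and label, with 2 plasmid features left out. Neuronal labels with at least 50 nuclei were kept, and Unknown and the non-neuronal labels needed at least 20. Sums were tested with edgeR 4.0.16 (TMM normalisation, filterByExpr, quasi-likelihood F-test) in R 4.3.3, with Benjamini-Hochberg adjustment over all genes. The neuronal comparisons used the 18 neuronal sums, the others all 30 sums. Nuclei with and without an Atf3 UMI were compared with library and label as a block. The libraries came from different pooled animals, so that the sums of a library share animals: the deviations of 105 pairs of labels correlated at a median r of 0.095 (-0.045 to 0.34), and the library was added as a block in an alternative fit. Free RNA was read from uncalled barcodes with 1 to 50 UMIs. No doublet caller was run, and nuclei with markers of another cell class were left out in alternatives instead.

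Alternatives were DESeq2 1.42.0, its size factors, no filter, the study's limits of 6000 genes and 5% mitochondrial UMIs, subtraction of free RNA, leaving out mixed nuclei or 1 library, and 1 fit of all labels. A milder limit on mixed nuclei (0.2% of UMIs), leaving out the shallow labels, and the levels by cluster were added after the data were seen. The tests were checked on simulated counts: a limit set at first on the share of changed genes recovered was not met, and was then replaced by limits on bias, wrong signs and false calls, which were met. The members and gene lists were chosen with earlier results of these data known. Named list genes are those called in the most comparisons or that bear on a member. Up to 3 genes most alike in pattern are named per member. Some genes of the list and 1 gene alike in pattern are not reported here.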

Additional observations from a re-analysis of the deposited data

Results flagged for a closer look

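Members were also seen in nuclei that the comparisons left out, above the level that 3 counts give. In the neuronal labels with fewer than 50 nuclei (34 male and 47 female nuclei in sum), Atp1b1 stood at 163 and 154 CPM, Slc12a2 at 30.2 and 85.5 CPM and Slc12a5 at 42.3 and 83.3 CPM. In nuclei outside the authors' neuronal subset that carried a neuronal label (421 male and 152 female), Atp1b1 stood at 121 and 82.6 CPM and Slc12a2 at 136 and 77.1 CPM, and Slc12a5 at 12.1 CPM in the male library, from 4 UMIs. In these nuclei the microglia markers summed to 2817 and 4068 CPM and the neuron markers to 3458 and 2202 CPM.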

How the results depend on the processing

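With the library as a block, the call of Atp1b1 in Unknown was gained (adjusted p = 0.0262), and no other call of a member changed. Subtracting free RNA lowered the counts of genes called to 580 (inhibitory against excitatory), 79 (L5 PT), 65 (Pvalb), 2372 (astrocytes), 1610 (oligodendrocytes), 4019 (microglia), 1685 (Unknown) and 2 (Atf3 UMI). Without nuclei holding 2 UMIs of another class, which left out 3469 nuclei, they were 473, 135 and 166 in neurons, 1600 in oligodendrocytes, 4052 in microglia, 1169 in Unknown and 1 by Atf3 UMI. With no filter, 366 genes were called by Atf3 UMI. The cause was not tested.

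For Atp1b1 in inhibitory labels the call was lost with no filter (0.37), free RNA subtracted (0.69), mixed nuclei left out (0.42), all labels in 1 fit (0.36) and without shallow labels (0.30). For Slc12a2 there it was lost with free RNA subtracted (-2.52) and without mixed nuclei (-1.05). The call of Slc12a5 was lost in L5 PT with free RNA subtracted (-3.33). In Pvalb it was lost by DESeq2 (-1.12), with no filter (-1.02), free RNA subtracted (-1.92) and all labels in 1 fit (-1.07). Slc12a5 was not tested in either comparison without mixed nuclei at 2 UMIs. Atp1b1 in astrocytes was lost with free RNA subtracted (-1.13) and without mixed nuclei (-0.65). Slc12a5 was lost in oligodendrocytes by DESeq2 (-2.99), with free RNA subtracted (-6.43) and without mixed nuclei (-2.12), and in microglia with free RNA subtracted (-6.43).

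Uncalled changes turned sign for Slc12a5 in inhibitory labels (0.0058 by DESeq2, 0.015 with no filter, 0.026 with the study's limits, 1.31 with free RNA subtracted, 0.017 with all labels, 0.019 at the milder mixed limit) and for Slc12a2 in astrocytes (3.07 with free RNA subtracted, 0.41 without mixed nuclei, 0.011 without shallow labels). Without mixed nuclei they did so for Atp1b1 in Pvalb (-0.45) and by Atf3 UMI (-0.28).

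In single libraries, which give no test, the values of Atp1b1 ran from 0.33 to 0.42 in inhibitory labels, from -8.65 to -2.80 in oligodendrocytes and from -2.48 to -1.88 in microglia. Those of Slc12a2 ran from -0.91 to -0.61 in inhibitory labels, 2.12 to 3.103 in oligodendrocytes and 1.85 to 2.03 in microglia. Those of Slc12a5 ran from -1.14 to -0.76 in Pvalb, -6.25 to -2.82 in oligodendrocytes and -2.42 to -1.50 in microglia.

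The mean neuronal level of Slc12a2 was 40.1 CPM with the study's limits, 10.3 with free RNA subtracted, and 43.6 and 42.2 without mixed nuclei at both limits. That of Slc12a5 was 39.3, 32.3, 30.9 and 39.2 CPM in the same order, and that of Atp1b2 0.221 CPM without mixed nuclei. Thinned to 2300 UMIs, mean shares of neuronal nuclei were 32.2% for Atp1b1, 0.334% for Atp1b2, 8.30% for Slc12a2 and 8.56% for Slc12a5. The Slc12a2 share of cotransporter UMIs in neurons was 32.4% with free RNA subtracted, and the Atp1b2 share of beta UMIs 0.259% with it and 0.221% without mixed nuclei.

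The share of free RNA in neuronal sums was estimated from their microglia markers. It reached its limit of 90% in the female L2/3 IT CTX-2 sum, so that subtraction left little of that sum. It was 82.6% in female L6 IT, 63.3% in female Vip and 53.5% in female L6 CT. The other female neuronal sums lay between 35.0% (Pvalb) and 47.8% (L4/5 IT), and the male ones between 17.4% (L4/5 IT) and 47.9% (L6 IT). Both libraries are pools. The p-values between labels rest on the spread between these 2 pools within labels, taken over all labels of a fit together. Those by Atf3 UMI rest on how the difference between nuclei with and without one varied over libraries and labels. Atp1b2 in neurons and Slc12a5 in oligodendrocytes rest on 18 and 1 UMIs.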
